A study of Mus musculus with 39 samples.

Results

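The genes that mark fat cells were followed in kidney, liver, lung and skin. They were the adipokine genes Adipoq, Lep, Retn and Cfd, the lipid droplet genes Plin1 and Cidec, the fatty acid carrier gene Fabp4, the carbonic anhydrase gene Car3 and the uncoupling protein gene Ucp1. The 9 members were taken by symbol, and all 9 were found among the 24537 genes of the kidney, liver and lung table and among the 52508 genes of the skin table. The RNA came from 39 libraries of Prf1-/- C57BL/6 mice, which lack perforin, the pore-forming protein of cytotoxic lymphocytes, in every group including the controls. Young mice were 3 months old and untreated (4 per tissue, 3 in skin). Old mice were 20 months old and had received vehicle (3 per tissue) or ABT-737, an inhibitor of anti-apoptotic BCL-2 family proteins used to remove senescent cells (3 per tissue). Dosing began at 18 months of age, at 25 mg/kg for the drug, with injections on 2 consecutive days monthly over 2 months, and organs were taken after perfusion. Age and the injections cannot be told apart between vehicle and young mice. The comparisons ask how these genes differed with age and with the drug in each organ.

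White adipocytes hold a single large lipid droplet and release hormones called adipokines, whereas brown adipocytes hold many small droplets and burn fatty acids for heat. Around a kidney, along the lung hilum and mediastinum and beneath the skin lie fat depots, so that a piece of organ can carry fat cells that are not part of its parenchyma. Several of the genes are not particular to fat: Fabp4 is also expressed by capillary endothelium and macrophages, Car3 by skeletal muscle and hepatocytes, and Cidec by hepatocytes that store lipid.

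RefSeq promoters were matched for 7 of the 9 members, Cidec having 2 start sites, which gave 8 windows from 250 bases before to 50 bases after the start. Fabp4 and Car3 had no entry. Shown here are Adipoq, against which other genes are ranked, both starts of Cidec, which changed in liver, and Ucp1, which stood out in 1 lung. Capitals mark the first transcribed base and any exact match, on either strand, to 3 motifs, the TATA box, the CCAAT box and a nuclear receptor element, searched as spelled with the counts given after the sequences. All 4 are in GRCm38.p6, at chr16:23146286-23146585 on the plus strand (Adipoq), chr6:113435711-113436010 on the minus strand (Cidec, upstream start), chr6:113434715-113435014 on the minus strand (Cidec, downstream start) and chr8:83290098-83290397 on the plus strand (Ucp1).
Adipoq: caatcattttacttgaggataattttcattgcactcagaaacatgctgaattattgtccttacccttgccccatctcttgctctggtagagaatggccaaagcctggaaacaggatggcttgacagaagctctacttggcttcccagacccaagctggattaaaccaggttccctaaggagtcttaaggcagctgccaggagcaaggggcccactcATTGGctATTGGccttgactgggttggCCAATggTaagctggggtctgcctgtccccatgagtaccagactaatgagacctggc
Cidec, upstream start: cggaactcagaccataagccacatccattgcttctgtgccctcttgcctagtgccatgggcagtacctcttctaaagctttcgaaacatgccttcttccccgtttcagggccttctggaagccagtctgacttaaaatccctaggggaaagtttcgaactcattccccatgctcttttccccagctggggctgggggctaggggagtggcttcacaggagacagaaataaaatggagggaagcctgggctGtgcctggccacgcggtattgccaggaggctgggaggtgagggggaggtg
Cidec, downstream start: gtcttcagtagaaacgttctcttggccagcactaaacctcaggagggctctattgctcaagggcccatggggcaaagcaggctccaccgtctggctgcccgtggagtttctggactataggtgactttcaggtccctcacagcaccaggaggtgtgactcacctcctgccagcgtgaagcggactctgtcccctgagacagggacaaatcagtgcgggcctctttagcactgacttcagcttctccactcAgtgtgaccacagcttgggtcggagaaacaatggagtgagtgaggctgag
Ucp1: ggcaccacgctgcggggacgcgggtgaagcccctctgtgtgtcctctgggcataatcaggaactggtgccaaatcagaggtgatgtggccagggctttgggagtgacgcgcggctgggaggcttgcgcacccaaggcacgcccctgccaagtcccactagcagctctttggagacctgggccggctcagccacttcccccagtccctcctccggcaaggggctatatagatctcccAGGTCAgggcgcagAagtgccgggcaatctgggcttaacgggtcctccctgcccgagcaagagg
The Adipoq window held 3 CCAAT matches, 34, 27 and 7 bases before the start, and the Ucp1 window held 1 AGGTCA match 14 bases before it. CCAAT was found in 1 of the 8 member windows and in 37.4% of all 32851 promoter windows. The nuclear receptor element, AGGTCA, was found in 1 of 8 and in 16.3% of all windows. The TATA box, searched as TATAAA, was found in 0 of 8 and in 13.6% of all windows. The reads come from the 3′ ends of transcripts, so the counts do not separate the starts of Cidec.

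In the mm10 coordinates of the kidney, liver and lung table, Adipoq lay at chr16:23146536-23157968, Lep at chr6:29060221-29073876, Retn at chr8:3655770-3659818, Cfd at chr10:79890853-79892655, Car3 at chr3:14863538-14872373 and Ucp1 at chr8:83290348-83298456 on the plus strand. Plin1 at chr7:79721164-79732776, Cidec at chr6:113424636-113435755 and Fabp4 at chr3:10204343-10208576 lay on the minus strand. No other gene of the GENCODE M21 annotation overlapped a member. Median library totals were 2172924 counts (kidney), 547867 (liver), 1928934 (lung) and 2485280 (skin), and the shallowest liver library held 223957. Levels are given as CPM, counts relative to the library's total after TMM scaling within the tissue, and a gene was called at a Benjamini-Hochberg adjusted p-value under 0.05 in edgeR's quasi-likelihood test. The skin table counts on longer gene intervals than the other table, so levels were not compared between them. Each tissue expressed its defining markers in all libraries: the 6 hepatocyte markers summed to between 48153 and 80999 CPM in liver, the 6 tubule markers to between 10238 and 12520 CPM in kidney, the 6 alveolar and club cell markers to between 29223 and 61879 CPM in lung, and the 6 keratinocyte markers to between 11337 and 35334 CPM in skin. In lung, ABT-737 replicate 4 was the highest library for all 8 members above the floor. The members' differences between ABT-737 lungs and the other groups are given with and without it. Skin ABT-737 replicate 3 was the highest skin for 5 of 8 members, and is left out only where stated. In bulk tissue fewer cells of a type and less RNA per cell cannot be told apart.

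**Figure D1:**
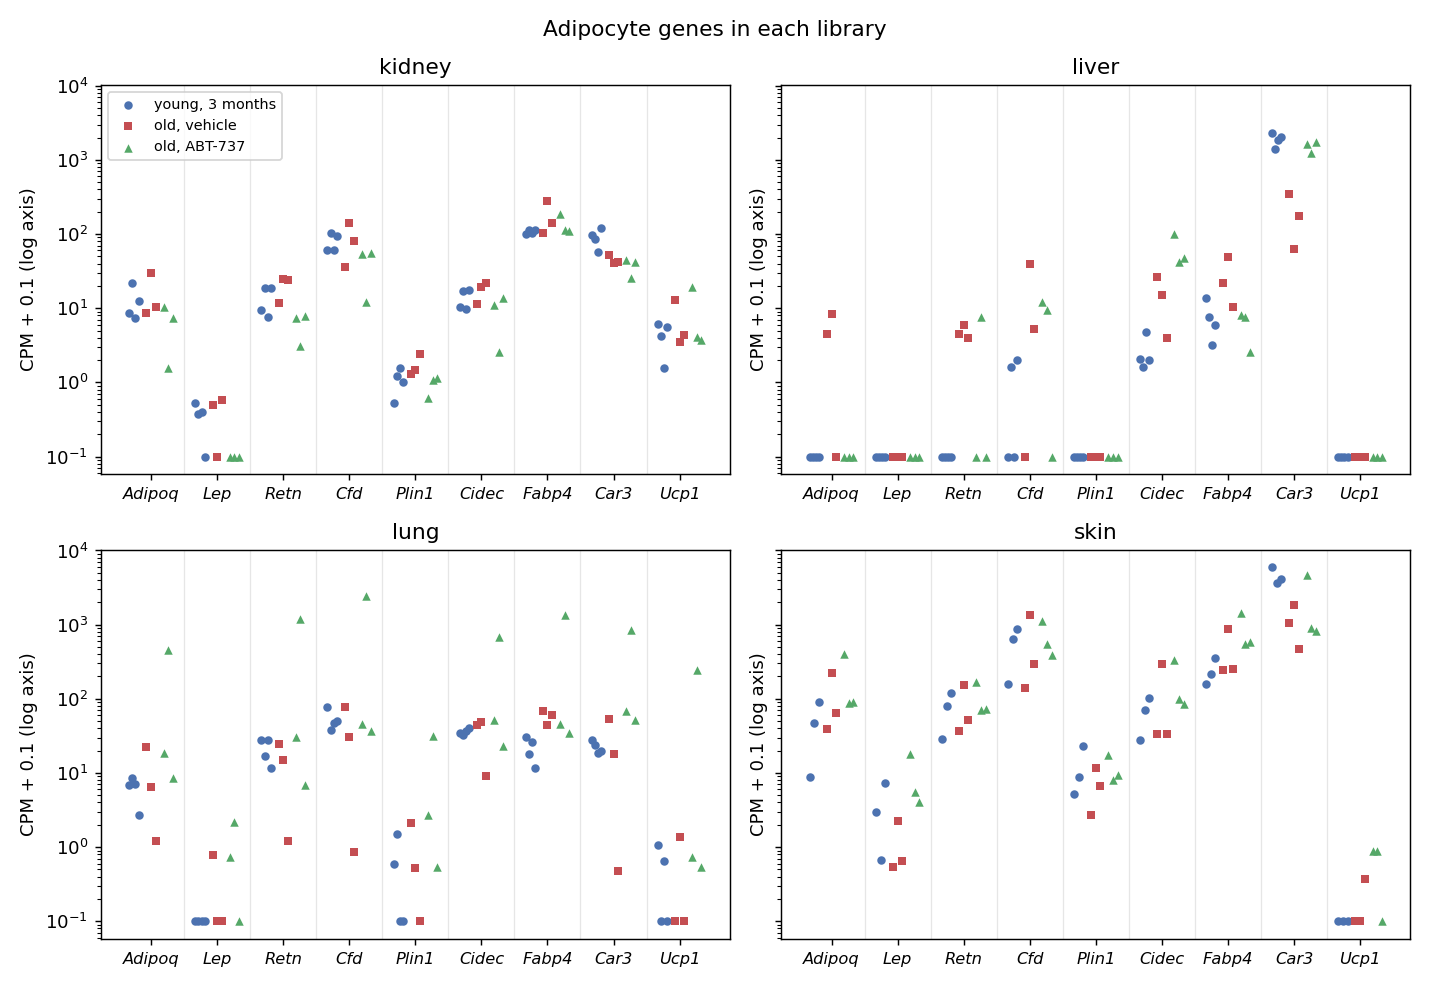
Level of each adipocyte gene in every library, in CPM with 0.1 added on a log axis, with 1 panel per tissue; blue circles are young mice, red squares old mice given vehicle and green triangles old mice given ABT-737, and points on the bottom line are libraries with 0 counts. In lung, 1 ABT-737 library is the highest for every gene, and in liver most members sit at 0 while Car3 is abundant and lower in the 3 vehicle mice.

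In young mice, the fat genes were close to absent from liver and present at low levels in kidney and lung. Adipoq, the adiponectin gene, had 152 counts over the 4 young kidneys (20 to 80 counts a library), 44 over the 4 young lungs (5 to 14 counts a library) and 0 over the 4 young livers. That is at least 10.4-fold higher in kidney than in liver and at least 4.78-fold higher in lung than in liver, with 3 counts over the liver group as the floor. Retn, the resistin gene, likewise had 156, 154 and 0 counts, at least 10.6-fold and 16.7-fold above liver. Cfd, which encodes adipsin, had 933, 393 and 2 counts, and its pooled rate was 95.4 times that of liver in kidney (95% counting interval 26.3 to 789) and 64.0 times in lung (17.6 to 530). Lep, the leptin gene, did not exceed 1 count in any kidney, liver or young lung library, and Plin1, which coats the droplet of white adipocytes, had 12, 3 and 0 counts. Ucp1, the heat-producing uncoupling protein of brown fat, had 46 counts in young kidneys, between 1.46 and 6.00 CPM, against 3 in young lungs and 0 in young livers.

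The genes with a role outside fat ordered the young tissues differently. Car3 was highest in liver at 1900 ± 395 CPM (SD, n = 4), then kidney at 89.6 ± 25.6 CPM, then lung at 22.3 ± 4.07 CPM. Fabp4 was highest in kidney at 107 ± 7.10 CPM, against 21.6 ± 8.60 CPM in lung and 7.46 ± 4.45 CPM in liver. Cidec was highest in lung at 35.8 ± 3.35 CPM, against 13.6 ± 4.18 CPM in kidney and 2.49 ± 1.43 CPM in liver. In a joint fit of the 12 young libraries 6 members could be tested, and all 6 were called between kidney and liver, where 51.5% of all genes were called. Between lung and kidney 5 of 6 were called (74.7% of all genes), Retn being the exception (edgeR adjusted p = 0.131). Between lung and liver 5 of 6 were called (69.4%), the exception being Fabp4 (adjusted p = 0.0787). With that many genes called, a call between tissues does not set the members apart. The joint scaling put the median of all genes 0.34 higher in kidney and 0.33 higher in lung than in liver on the log2 scale; on total counts alone it was 1.01 and 1.10. In skin, where Ucp1 had 0 counts in the 3 young libraries, the young mice ranged from 8.68 to 91.4 CPM for Adipoq, 158 to 874 CPM for Cfd and 3644 to 5918 CPM for Car3.

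In liver, Car3 was lower in vehicle than in young mice and higher with the drug than with vehicle, while Cidec rose in both steps. Car3, a carbonic anhydrase abundant in hepatocytes, stood at 2339, 1396, 1831 and 2033 CPM in the young livers, at 349, 62.0 and 176 CPM in the vehicle livers, and at 1625, 1233 and 1765 CPM in the ABT-737 livers. All 3 vehicle livers lay below every young and every ABT-737 liver, and the young and ABT-737 livers overlapped. Car3 fell by 3.35 ± 0.443 (SE) on the log2 scale from young to vehicle (adjusted p = 0.000105), and was 3.04 ± 0.451 higher in ABT-737 than in vehicle livers (adjusted p = 0.0013). It was not called between ABT-737 and young livers (adjusted p = 0.67). Leaving out any 1 library kept both calls, with log2 differences from -4.00 to -2.89 for vehicle against young and from 2.60 to 3.71 for the drug.

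Cidec, whose protein fuses lipid droplets and is induced in steatotic liver, had its highest levels with the drug. It was at 1.94, 1.49, 4.61 and 1.92 CPM in young livers, 26.2, 15.2 and 3.85 CPM in vehicle livers and 99.1, 41.7 and 47.0 CPM in ABT-737 livers. The 3 ABT-737 livers lay above all others, whereas the lowest vehicle liver lay within the young range. These values rest on few reads, 6 counts over the young, 22 over the vehicle and 66 over the ABT-737 livers. Cidec entered the test through its level in the ABT-737 livers, so its adjusted p-values below are a description and not independent support. Cidec was 4.42 ± 0.590 higher on the log2 scale in ABT-737 than in young livers (adjusted p = 0.000627), and the call held with each of the 10 libraries left out and under the other 6 settings. The step from young to vehicle, 2.17 ± 0.737 (adjusted p = 0.0443), and the step from vehicle to ABT-737, 2.24 ± 0.503 (adjusted p = 0.0183), were less firm. The first was no longer called without any 1 of the 4 young libraries, vehicle replicate 3 or vehicle replicate 4 (adjusted p from 0.0528 to 0.191), and the second was lost on leaving out replicate 5 of vehicle or either of replicates 3 and 4 of ABT-737 (adjusted p from 0.0502 to 0.0959).

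Of the 9 members, 2 were tested in liver. Cidec passed the expression filter through the ABT-737 livers, the group where it was highest, and did not pass on young and vehicle livers alone. The count called was 2 for vehicle against young (22.6% of all genes called) and 2 for ABT-737 against vehicle (3.85%). For ABT-737 against young it was 1 (8.40%). As Cidec entered through that group, these counts are no support for a change of the members as a set. The adipocyte-restricted members stayed at or near 0 in the same libraries. Plin1, Lep and Ucp1 had 0 counts in all 10 livers, and Adipoq had 0 counts in all young and ABT-737 livers, 1 count in vehicle replicate 3 and 7 in vehicle replicate 4. Vehicle replicate 4 also held the most Cfd (34 counts, 39.8 CPM) and the most Fabp4 (42 counts, 49.2 CPM) of the livers, and 70 counts of 6 adrenal cortex genes against 0 to 4 in the other livers. Its Car3, at 62.0 CPM, was the lowest of the vehicle livers, and its Cidec, at 15.2 CPM, lay between the other two. Retn had 1 to 5 counts in each vehicle liver, at least 3.80-fold above the young group with 0. Over the vehicle livers Cfd had a pooled rate 24.1 times that of young livers (95% counting interval 6.22 to 206), and 34 of its 38 counts were in replicate 4.

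**Figure D2:**
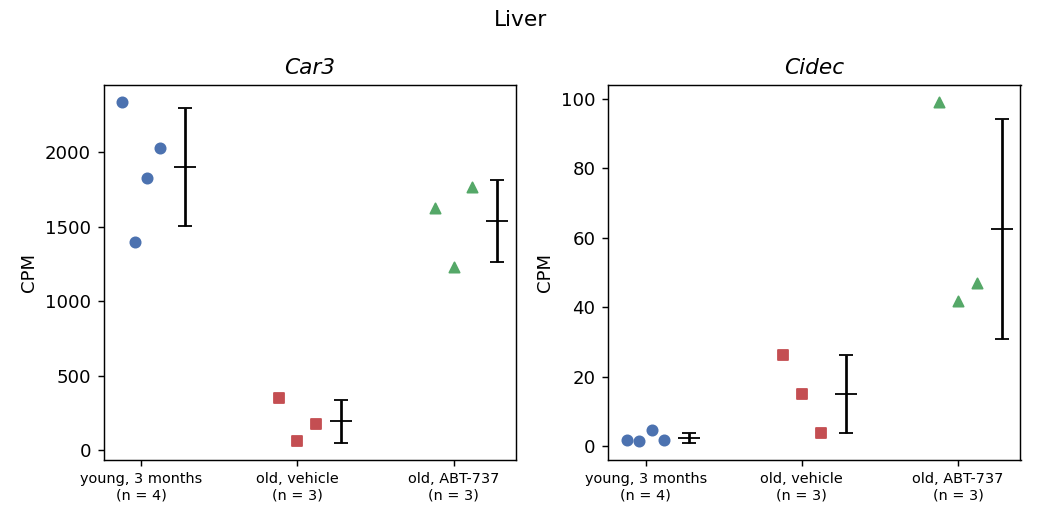
CPM of Car3 and Cidec in each liver library (points), with the group mean and SD beside them (black bars). Car3 lies between 62.0 and 349 CPM in the 3 vehicle livers and at 1233 CPM or more in all others, and Cidec is highest in the 3 ABT-737 livers.

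Other changes in the livers stood beside those of Car3 and Cidec. Of the white adipocyte genes of lipid storage and release listed besides the members, 11 of 21 were tested in liver. Agpat2, an acyltransferase of triglyceride synthesis, was called higher in vehicle than in young (1.0 ± 0.212, adjusted p = 0.00351) and in ABT-737 than in young livers (1.19 ± 0.213, adjusted p = 0.00342). G0s2, an inhibitor of the lipase ATGL, was called higher in ABT-737 than in young livers (2.80 ± 0.542, adjusted p = 0.0052), and Cebpa, an adipogenic and hepatic transcription factor, lower in vehicle than in young (-0.93 ± 0.275, adjusted p = 0.0231). Of the 11, 6 were higher and 5 lower in vehicle than in young livers (median log2 difference 0.07, against 0.02 over all genes), and 10 were higher in ABT-737 than in vehicle livers (median 0.50, against -0.03), with 0 of the 11 called there. The 1 brown adipocyte gene tested, Elovl3, a fatty acid elongase, was called higher in ABT-737 than in young livers (2.60 ± 0.686, adjusted p = 0.0275). The 8 macrophage markers summed to between 1654 and 1847 CPM in vehicle livers against 318 to 439 CPM in young and 241 to 495 CPM in ABT-737 livers, and the hepatocyte markers to 48153 to 65641 CPM against 64243 to 80029 and 71643 to 80999 CPM. The part of these marker shifts in the Car3 and Cidec results was not tested. In vehicle replicate 5 skeletal muscle genes summed to 103 CPM (80 counts), against at most 3.84 CPM in the young and 1.90 CPM in the ABT-737 livers, and its Car3 was 176 CPM.

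In kidney the members other than Car3 did not pass the test. Car3 was at 96.5, 85.4, 57.4 and 119 CPM in young kidneys, 52.2, 41.0 and 42.3 CPM in vehicle kidneys and 45.2, 25.2 and 41.5 CPM in ABT-737 kidneys. Both old groups lay wholly below the young, and overlapped with each other. It fell by 0.97 ± 0.235 on the log2 scale from young to vehicle (adjusted p = 0.0124), and the difference between ABT-737 and young kidneys was -1.26 ± 0.241 (adjusted p = 0.0122). Without vehicle replicate 4 or 5 the first call was lost (adjusted p = 0.0539 and 0.0634), and the second held without any single library. Of 7 members tested, 1 was called for vehicle against young (13.3% of all genes), 0 for ABT-737 against vehicle (1.35%) and 1 for ABT-737 against young (2.12%). DESeq2 called 1 in the middle comparison, Retn. The alternative settings, DESeq2 among them, called from 59 to 368 of all genes there. In edgeR 4 of the 7 had an unadjusted p under 0.05 in that comparison, as had 1647 of all 11123 genes tested.

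The adipokines of the kidney had lower estimates with the drug than with vehicle, and none of them passed the test in edgeR. Retn was at 11.8, 24.6 and 23.9 CPM in vehicle and 7.19, 2.97 and 7.79 CPM in ABT-737 kidneys, which did not overlap, and young kidneys ranged from 7.61 to 18.7 CPM. Its log2 difference between ABT-737 and vehicle was -1.71 ± 0.442 (adjusted p = 0.0726 in edgeR, 0.0132 in DESeq2), and without vehicle replicate 3 it was called (-2.02, adjusted p = 0.0168). Adipoq differed by -1.25 ± 0.591 (adjusted p = 0.336) and Cfd by -1.04 ± 0.465 (adjusted p = 0.303). With 1 library left out Adipoq ranged from -1.78, without ABT-737 replicate 3, to -0.58, without vehicle replicate 4, and Cfd from -1.43, without vehicle replicate 3, to -0.49, without vehicle replicate 4, and neither was called. Of the 7 members tested, 6 had a lower and 1 a higher estimate in ABT-737 than in vehicle kidneys, with a median of -0.96 against 0.01 over all genes. Kidney ABT-737 replicate 4 was the lowest of the 10 kidneys for 5 of the 8 members above the floor, with Adipoq at 3 counts, Cidec at 5 and Cfd at 24. Kidney vehicle replicate 4 was the highest for 4, with Adipoq at 29.4 CPM, Cfd at 142 CPM and Fabp4 at 277 CPM.

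Ucp1 in kidney was high in 1 library of each old group. It was at 19.5 CPM in ABT-737 replicate 3 and 13.0 CPM in vehicle replicate 3, and between 1.46 and 6.00 CPM in the other 8 kidneys. The difference between ABT-737 and young kidneys, 1.13 ± 0.602 (adjusted p = 0.361), became -0.10 without ABT-737 replicate 3. Among the listed white adipocyte genes of storage and release, 13 were tested in kidney, and 6 were called in vehicle against young. Lipe, the hormone-sensitive lipase (1.18 ± 0.194, adjusted p = 0.000746), Thrsp, a lipogenic factor (0.96 ± 0.208, adjusted p = 0.00603), G0s2 (0.66 ± 0.189, adjusted p = 0.0303) and Pparg, the adipogenic nuclear receptor (1.0 ± 0.299, adjusted p = 0.0359), were higher. Lpl, lipoprotein lipase (-1.34 ± 0.221, adjusted p = 0.000786), and Cd36, a fatty acid transporter (-1.20 ± 0.299, adjusted p = 0.014), were lower. Lpl was the 1 called gene of the list in ABT-737 against vehicle kidneys, higher by 0.98 ± 0.231 (adjusted p = 0.0468), and G0s2 the 1 in ABT-737 against young (0.80 ± 0.189, adjusted p = 0.0359). Of the 7 brown adipocyte genes tested, Pdk4, a kinase that restrains glucose oxidation, was called higher than in young in both vehicle (2.42 ± 0.595, adjusted p = 0.0134) and ABT-737 kidneys (2.41 ± 0.589, adjusted p = 0.044). The macrophage markers summed to 785 to 1339 CPM in vehicle kidneys against 218 to 294 CPM in young and 320 to 544 CPM in ABT-737 kidneys, and their part in these values was not tested.

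In lung, the fat genes were high in 1 library. Lung ABT-737 replicate 4 was the highest of the 10 lungs for all 8 members above the floor, and its members summed to 7256 CPM, 0.726% of the library, against 72.2 to 292 CPM in the others. Adipoq was at 18.7, 450 and 8.50 CPM in ABT-737 replicates 3, 4 and 5, against 22.1, 6.43 and 1.12 CPM in vehicle lungs and 2.60 to 8.34 CPM in young lungs. Retn was at 30.3, 1181 and 6.71 CPM in the ABT-737 lungs, against 24.1, 15.0 and 1.12 CPM with vehicle. Cfd stood at 45.1, 2444 and 37.1 CPM, against 77.8, 30.4 and 0.748 CPM with vehicle. For Adipoq and Cfd the other ABT-737 lungs lay within the vehicle range, and for Retn replicate 3 lay above it. Lep reached 2 counts in the same library, and Plin1 30 counts, against at most 4 in any other lung.

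Brown fat genes were high in that library as well. Ucp1 had 230 counts there (242 CPM), against 0 to 3 counts in each of the other 9 lungs. Of the 12 brown adipocyte genes listed besides Ucp1, Cidea had 234 counts (247 CPM), Cox8b 181 (191 CPM), Cox7a1 118 (124 CPM) and Elovl3 43 (45.3 CPM). Zic1, a regional marker of interscapular brown fat, had 0 counts, and Dio2, the thyroid hormone deiodinase, had 2. Summed, the 12 genes reached 799 CPM against 39.3 to 172 CPM in the other lungs, and the 20 listed white adipocyte genes found in the table reached 3810 CPM against 593 to 1122 CPM. Thrsp had 607 counts (640 CPM) and Adig, which encodes adipogenin, 49 (51.6 CPM). The lung's own markers were not low: alveolar and club cell genes summed to 61879 CPM, and endothelial genes to 1958 CPM, within the range of 565 to 2771 CPM over the other lungs. The hepatocyte list summed to 821 CPM, of which 753 of 779 counts were Cyp2e1, with Alb at 5 counts, and the other lungs had 2.99 to 244 CPM. Skeletal muscle genes summed to 58.0 CPM against 22.1 to 40.7 CPM, and cardiac muscle genes to 311 CPM against 40.0 to 752 CPM.

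The fitted differences of the lung rested on that library. With all libraries, 6 members were tested, 0 were called in vehicle against young (12.9% of all genes), 0 in ABT-737 against vehicle (0% of all genes) and 2 in ABT-737 against young (2.55%). In the middle comparison edgeR called 0 genes of 11949, with 1919 at an unadjusted p under 0.05, and DESeq2 called 342. With the replicate number of all lungs, young ones included, as a block, 99 genes and 0 members were called there. The pairing of vehicle and ABT-737 lungs in that block was taken from the data. All 6 members tested had an unadjusted p under 0.05 there, with estimates from 2.91 ± 0.940 for Cidec to 4.97 ± 1.41 for Retn and adjusted p from 0.132 to 0.174. Against young lungs, Adipoq was 4.65 ± 1.13 higher (adjusted p = 0.0466) and Fabp4 4.46 ± 0.972 higher (adjusted p = 0.0384). Without replicate 4 those became 1.10 (adjusted p = 0.367) and 0.84 (adjusted p = 0.141), and 0 members were called against either group. Both calls were also lost without any 1 of the 4 young lungs, which left 0 members called. Without replicate 4 the estimates against vehicle were 0.53 for Adipoq, 0.48 for Retn, 0.22 for Cfd, 0.14 for Cidec, -0.54 for Fabp4 and 1.38 for Car3. Against young, Cfd and Retn changed sign, to -0.38 and -0.24.

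**Figure D3:**
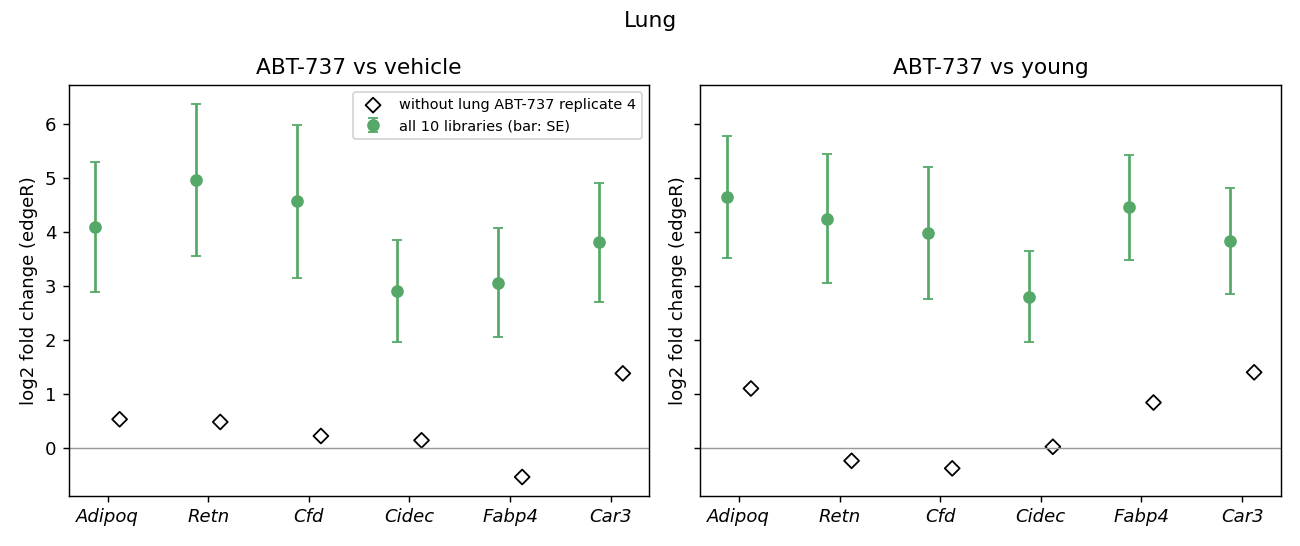
Log2 fold changes of the 6 members tested in lung, ABT-737 against vehicle (left) and against young (right), with all 10 libraries (green points, bars are the SE) and without lung ABT-737 replicate 4 (open diamonds, no error drawn). All 6 estimates lie at 2.80 or above with every library and between -0.54 and 1.40 without the 1 library.

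Car3 was higher in all 3 ABT-737 lungs than in every young lung, and its ABT-737 and vehicle lungs overlapped. It was at 68.9, 854 and 51.0 CPM in ABT-737 lungs, all above the 18.5 to 27.5 CPM of the young lungs, and at 53.7, 18.0 and 0.374 CPM in vehicle lungs. Its difference from young lungs was 3.84 ± 0.983 (adjusted p = 0.0531) with replicate 4 and 1.40 without it. Of the 20 white adipocyte genes, 16 were tested, and all 16 had a higher estimate in ABT-737 than in vehicle lungs, with a median of 1.04. Without replicate 4 this was 9 of 17, with a median of 0.03. The list's called genes against young lungs were Thrsp (3.71 ± 0.906, adjusted p = 0.0475) and Lpl (1.67 ± 0.283, adjusted p = 0.0231), and Cidea among the brown genes (4.76 ± 1.06, adjusted p = 0.0398); without replicate 4, 1 white gene and 0 brown genes were called.

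Fabp4 was higher in all vehicle than in all young lungs. It was at 30.9, 18.1, 26.0 and 11.4 CPM in young lungs and at 68.4, 43.7 and 59.8 CPM in vehicle lungs, with no overlap. The log2 difference was 1.40 ± 0.923 and was not called with all libraries (adjusted p = 0.335). Fitted on the compared groups alone it was called (1.40, adjusted p = 0.00855), as it was without ABT-737 replicate 4 (1.39, adjusted p = 0.0119). Macrophage markers summed to 3254, 3805 and 6693 CPM in the vehicle lungs against 1149 to 1480 CPM in the young, and endothelial markers to 565 to 1878 CPM against 2330 to 2771 CPM. Their part in the Fabp4 difference was not tested. Vehicle replicate 5, with the most macrophage signal, had Fabp4 at 59.8 CPM, between the other vehicle lungs. It was the lowest lung for 7 of the 8 members above the floor, among them Car3 at 1 count, Cfd at 2 and Adipoq at 3. Lpl, which macrophages also express, was called higher in vehicle than in young lungs (1.46 ± 0.281, adjusted p = 0.00583), and G0s2 (-1.25 ± 0.320, adjusted p = 0.0216) and, of the brown list, Kcnk3 (-1.92 ± 0.433, adjusted p = 0.0119) lower. Without ABT-737 replicate 4 the white list had 1 gene called higher and 3 called lower in this comparison, in place of 1 and 1, and the brown list 1 called lower as before.

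In skin the members varied widely within groups. Adipoq was at 8.68, 47.8 and 91.4 CPM in young skin, 39.5, 225 and 64.3 CPM in vehicle skin and 397, 87.0 and 91.1 CPM in ABT-737 skin. Fabp4 was at 160, 215 and 357 CPM, then 244, 883 and 251 CPM, then 1422, 551 and 582 CPM. Cidec was at 27.5, 71.4 and 101 CPM, then 33.8, 293 and 33.7 CPM, then 337, 98.7 and 85.6 CPM. ABT-737 replicate 3 was the highest of the 9 skins for 5 of the 8 members above the floor, and vehicle replicate 4 exceeded the other vehicle skins for all 8. Of 8 members tested, 0 were called in vehicle against young (11.2% of all genes), in ABT-737 against vehicle (0% of all genes) or in ABT-737 against young skin (5.17%). In the middle comparison edgeR called 0 of 14224 genes, with 1134 at an unadjusted p under 0.05 of which 1 was a member, and DESeq2 called 60 genes.

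Leptin gave the largest skin estimate for the drug. Lep was at 2.89, 0.575 and 7.28 CPM in young, 0.439, 2.14 and 0.552 CPM in vehicle and 17.9, 5.48 and 3.96 CPM in ABT-737 skin. All 3 ABT-737 skins lay above all 3 vehicle skins, on 96 against 9 counts. The log2 difference was 3.10 ± 0.912 (adjusted p = 0.476 in edgeR, 0.109 in DESeq2), and it stayed between 2.12 and 4.06 when 1 library was left out. Fabp4 was 1.80 ± 0.596 higher in ABT-737 than in young skin (adjusted p = 0.0897 in edgeR, 0.0172 in DESeq2), again without overlap. All 8 members tested had a higher estimate in ABT-737 than in vehicle skin, with a median of 0.78 against 0.04 over all genes. By contrast, 10 of 17 white adipocyte genes were higher (median 0.22) and 1 of 9 brown adipocyte genes was (median -0.06). The members summed to 8216 CPM in ABT-737 replicate 3, 2275 and 2071 CPM in the other ABT-737 skins, and 1540, 4776 and 1169 CPM in the vehicle skins. The 8 estimates share these libraries and are not 8 separate observations. Plin1, at 5.06 to 22.7 CPM in young, 2.64 to 11.4 CPM in vehicle and 7.83 to 17.6 CPM in ABT-737 skin, overlapped in every comparison, as did Retn and Cfd. Ucp1 had 0 counts in young skin and at most 3 in any old skin, too few for a fold.

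Car3 in skin was lower in every vehicle than in every young mouse. It was at 5918, 3644 and 4169 CPM in young, 1045, 1855 and 463 CPM in vehicle and 4726, 899 and 831 CPM in ABT-737 skin. The log2 difference of -2.03 ± 0.722 was not called in edgeR with all libraries (adjusted p = 0.0926) and was called in DESeq2 (0.0137), on the compared groups alone (0.0273) and without ABT-737 replicate 3 (0.0214). Between ABT-737 and young skin Car3 differed by -1.09 ± 0.703 (adjusted p = 0.316) with all libraries, and by -2.41 (adjusted p = 0.0185) without ABT-737 replicate 3. The 8 skeletal muscle markers summed to 101483, 71580 and 71468 CPM in the same young skins, 41157, 51432 and 11389 CPM in the vehicle skins and 59035, 20591 and 18409 CPM in the ABT-737 skins. All 8 were lower in both old groups than in young, with medians of -1.18 for vehicle and -1.32 for ABT-737, and 0 of 8 were called. The amount of the muscle layer in a skin sample and its part in the Car3 difference were not tested. Cox8b (-2.64 ± 0.521, adjusted p = 0.0189) and Cpt1b (-2.40 ± 0.376, adjusted p = 0.0122), which are listed with brown fat and are also muscle genes, were called lower in vehicle than in young skin, and Elovl3 higher (2.47 ± 0.565, adjusted p = 0.0283). The same comparison for ABT-737 gave -2.65 ± 0.521 for Cox8b (adjusted p = 0.03) and -2.43 ± 0.375 for Cpt1b (adjusted p = 0.0163). Macrophage markers summed to 1527 to 3613 CPM in vehicle, 599 to 1295 CPM in ABT-737 and 228 to 721 CPM in young skin.

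**Figure D4:**
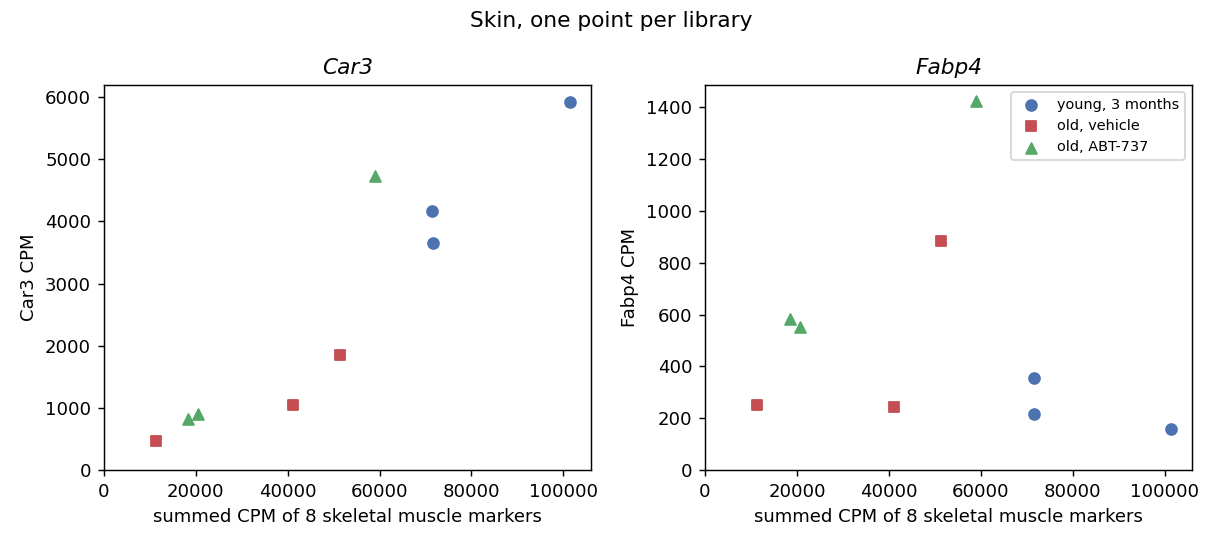
CPM of Car3 (left) and Fabp4 (right) against the summed CPM of 8 skeletal muscle markers in the 9 skin libraries, 1 point each, in young (blue circles), vehicle (red squares) and ABT-737 mice (green triangles). The 3 young skins have both the most muscle signal, 71468 CPM or more, and 3 of the 4 highest Car3 levels, while Fabp4 is highest in ABT-737 replicate 3 at 1422 CPM and lowest in a young skin at 160 CPM.

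Whether an effect differed between organs was tested in a joint fit of the 30 kidney, liver and lung libraries. Of 7 members tested, the difference of vehicle from young mice differed between lung and liver for 1, Car3, where 11.4% of all genes were called. The log2 difference of differences was 3.38 ± 0.998 (adjusted p = 0.0241), and it was no longer called without liver vehicle replicate 4 (2.93, adjusted p = 0.0798) or lung vehicle replicate 3 (2.05, adjusted p = 0.229). Without lung ABT-737 replicate 4 it was 3.40 (adjusted p = 0.00298). Between kidney and liver 0 of 7 were called (0.786% of all genes), although Car3 gave 2.38 ± 0.940 (adjusted p = 0.287), and between lung and kidney 0 of 7 (8.04%). For ABT-737 against vehicle, 0 of 7 members were called between kidney and liver (0.0839%), between lung and kidney (0%, with 1219 genes at an unadjusted p under 0.05 in edgeR and 12 called by DESeq2) or between lung and liver (0.290%). Car3 between kidney and liver was -3.32 ± 1.02 (adjusted p = 0.331). Retn between lung and kidney was 6.69 ± 1.45 (adjusted p = 0.273) and was 2.14 without lung ABT-737 replicate 4. Ucp1 had 0 counts in every liver, so no difference against liver could be called for it. Adipoq and Retn had 0 counts in young livers, and Adipoq also in ABT-737 livers. For these members the absence of a call against liver is not a finding of no difference. These comparisons between organs share libraries with one another, and a mouse may have given several organs.

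Genes with a profile most like that of Adipoq were ranked within each tissue by Pearson's r of log2 CPM over its libraries, which share depth and scaling, and are given as a description. In lung (10 libraries) they were Thrsp (r = 0.98), Cidea (0.96), Adig (0.96), Folr2 (0.94) and Ttc29 (0.92), with Retn at 0.94 and Cfd at 0.90 among the members. Without replicate 4, r was 0.90 for Thrsp, 0.80 for Cidea and Adig, and 0.30 for Fabp4 in place of 0.86. In kidney (10 libraries) the member Cfd came first of all 11123 genes (0.94), followed by Cep44, Fbn1, Slc35e4, Aptx and Ppox (0.89 to 0.91), while r was 0.03 for Ucp1 and 0.47 for Car3. In skin (9 libraries) they were Myh11, Lipe, Actg2, Ndel1 and Tmod3 (0.93 to 0.96), with Fabp4 at 0.92, Cidec at 0.90, Lep at 0.51 and Car3 at -0.09. Without the library of highest Adipoq, r became 0.20 for Lep and -0.42 for Car3 in skin (ABT-737 replicate 3 left out), and 0.13 for Fabp4, in place of 0.51, and 0.72 for Car3 in kidney (vehicle replicate 4 left out). Adipoq was not tested in liver, so no such genes are given there.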

How the data were processed

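RNA of 39 libraries was sequenced from the 3′ end by a bulk form of MARS-seq. The authors deposited raw read counts per gene in 2 tables, 1 for kidney, liver and lung on RefSeq transcripts and 1 for skin on Ensembl transcripts extended at the 3′ end. The submitters' processing notes name bcl2fastq, HISAT 0.1.5, HOMER and mm10; whether molecule barcodes were collapsed and whether strand was used is not given in the sources used here. Samples were grouped by their titles, and the treatment labels of some ABT-737 mice, which read ABT-738 or ABT-739, were taken as ABT-737.

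From the counts, each tissue was fitted with its 3 groups in edgeR 4.0.16 (R 4.3.3; TMM scaling, filterByExpr, quasi-likelihood test) and p-values were adjusted over all genes tested by Benjamini-Hochberg. Young mice of 3 tissues, and all kidney, liver and lung libraries, were fitted jointly for differences between organs. DESeq2 1.42.0, other scalings, no filter beyond 1 count, only the compared groups, a replicate block and each library left out were alternatives. The fits were tested on simulated data. Groups with at most 3 counts served as a floor, and 95% intervals on pooled counts and floors cover counting error only. P-values rest on the spread between libraries within groups, estimated over all groups of a fit and shared in part over genes. The joint fits treat all libraries as independent. No libraries held identical counts.

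All members' levels are given everywhere; fold changes only for members called or with a log2 difference of at least 1, list genes where called, and in each tissue the 5 genes most like Adipoq by Pearson's r of log2 CPM (prior count 2). Members and lists were chosen with earlier results of these data known. Vehicle and ABT-737 lungs with the same number had r from 0.18 to 0.43 in 3 pairs, against -0.57 to 0.30 in pairs of unlike number. They were taken as paired in the block alternative only. That block entered the replicate number of all libraries of a fit, young ones included, but no other groups were read as paired. The vehicle and ABT-737 lungs came from different mice, and no label links them by number, so the pairing rests on these data alone. Promoters came from RefSeq (GRCm38.p6).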

Additional observations from a re-analysis of the deposited data

Results flagged for a closer look

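The difference between vehicle and young mice in Car3, the carbonic anhydrase gene of hepatocytes and muscle, was picked out because lung and liver differed by the test of the difference itself. The log2 difference of differences was 3.38 ± 0.998 (SE, edgeR adjusted p = 0.0241). It was no longer called without lung vehicle replicate 3 (2.05, adjusted p = 0.229) or liver vehicle replicate 4 (2.93, adjusted p = 0.0798). No group of 4 young mice held a library far from the others for a member, over the 16 groups looked at.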

How the results depend on the processing

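Of the alternatives to the counts of members called, 394 gave an equal or near count, 30 a higher and 26 a lower one. For DESeq2, called members to which it gave no adjusted p were left out of the count compared. In kidney, vehicle against young gave 2 without the filter, 0 with the replicate block and 0 to 2 with a library left out; ABT-737 against vehicle 1 in DESeq2 and without the filter, and 0 to 1 with a library left out; ABT-737 against young 0 with the block. In liver, vehicle against young gave 6 without the filter, 1 on the compared groups, 1 with the block and 1 to 2 with a library left out; ABT-737 against vehicle 1, 1 and 1 to 2 under the last 3. In lung, vehicle against young gave 1 on the compared groups and 0 to 1 with a library left out; ABT-737 against vehicle 7 without the filter and 0 to 3; ABT-737 against young 1 on total counts, 8 without the filter, 0 with the block and 0 to 5. In skin, vehicle against young gave 1 in DESeq2, without the filter and on the compared groups, and 0 to 1; ABT-737 against young 1 in DESeq2 and without the filter, and 0 to 1. The difference of vehicle from young between lung and liver gave 0 to 2 with a library left out. For the drug, kidney against liver gave 1 without the filter, lung against kidney 1 in DESeq2, 7 without the filter and 0 to 7, and lung against liver 1 in DESeq2, 2 without the filter and 0 to 1. The number of all genes called moved as well, and the counts of members are not read as a result about the members. In lung, ABT-737 against vehicle called 0 to 359 genes over the settings and 0 to 676 with a library left out. ABT-737 against young called 4 to 805 and 1 to 1399. In liver, vehicle against young called 291 to 1942 and 859 to 1486. For the drug, lung against kidney called 0 to 16 and 0 to 48. The cause was not tested.

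Signs turned with a library left out, as ranges of the log2 difference over the libraries left out, for Ucp1 in kidney (ABT-737 against young, -0.10 without ABT-737 replicate 3, to 1.5), Fabp4 in lung against vehicle (-0.54 to 3.62), Retn (-0.24 to 4.84) and Cfd (-0.38 to 4.55) in lung against young, and the drug difference of Fabp4 between lung and kidney (-0.28 to 3.94), the lung values being lowest without lung ABT-737 replicate 4. They also turned for the difference of vehicle from young of Car3 between lung and kidney (-0.33 without lung vehicle replicate 3, to 1.63) and the drug difference of Retn between kidney and liver (-1.74 to 4.90, the last without liver ABT-737 replicate 4).

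With the replicate block, ABT-737 against vehicle in lung, the groups taken as paired from the data, called 99 genes in place of 0. It called 0 members (Adipoq 3.44, edgeR adjusted p = 0.122). Elsewhere numbers were not taken to pair libraries. Genes called over all with the block were 369, 59 and 33 in kidney, 291, 54 and 39 in liver, 333 and 4 against young in lung, and 0 in each skin comparison. In lung, DESeq2 gave no adjusted p for Adipoq, Retn, Cfd, Fabp4 and Car3 in ABT-737 against vehicle or young, leaving Cidec (0.134 and 0.0807). On total counts alone the median of all genes moved to 0.12 for vehicle against young in lung and skin and to 0.18 for ABT-737 against young in skin. Liver depth limits its low members to few counts.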
